A study of Mus musculus with 18 samples.

Results

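The 37 mouse genes for aminoacyl-tRNA synthetases were followed across bone marrow cultures of 2 genotypes and 3 media. They were taken from the 55536 gene IDs of the count files by GENCODE M21 symbol: protein-coding genes whose symbol is a single letter followed by "ars", with or without a final 1 or 2, together with Eprs, Farsa and Farsb. The 17 symbols ending in 2 name the mitochondrial enzymes, and the other 20 were counted as cytosolic. Gars and Kars each encode both a cytosolic and a mitochondrial form of their enzyme and are among the 20. All 37 genes passed the filter on low counts.

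Each synthetase joins a particular amino acid to its tRNA, the step that fixes the genetic code, and every translating cell needs the set. Most animal cells keep separate nuclear genes for the cytosolic and the mitochondrial enzyme, and several cytosolic ones sit together in a multi-synthetase complex held by the scaffold proteins Aimp1, Aimp2 and Eef1e1. Many cytosolic synthetase genes are known targets of Atf4, the transcription factor of the amino acid and integrated stress responses.

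Marrow came from BALB/c mice, either wild type (WT) or deficient in Cysltr1, the receptor 1 for cysteinyl leukotrienes. The cells were grown for 4 days with GM-CSF at 40 ng/mL, with GM-CSF and IL-6 at 40 ng/mL, or with GM-CSF and 50% by volume of medium conditioned for 24 h by EMT6, a mouse mammary carcinoma line. GM-CSF was thus present in all 6 groups, and each group held 3 libraries of poly(A) RNA, each from marrow pooled from 3 mice. The labels do not say whether the 3 libraries of a group came from separate pools, so the p-values measure the spread between these libraries, which may be technical. In whole cultures, fewer cells of a type and less RNA per cell cannot be told apart.

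Each library held 9.58 M to 32.0 M gene counts. Reads outside annotated features made up 12.8% to 20.5% of the reads in GM-CSF and IL-6 libraries, 34.7% to 37.5% in WT libraries with EMT6 medium and 50.1% to 50.4% in labelled Cysltr1-/- libraries with EMT6 medium. Cysltr1 mRNA was higher, not lower, in the libraries labelled Cysltr1-/- in every medium, with no overlap. As gene counts scaled to library size (CPM), GM-CSF libraries held 47.7 to 53.7 in WT and 69.0 to 71.2 in labelled Cysltr1-/-. IL-6 libraries held 66.8 to 68.7 in WT and 81.8 to 85.4 in labelled Cysltr1-/-, and EMT6 libraries 4.56 to 5.02 in WT and 8.73 to 12.7 in labelled Cysltr1-/-. A count over the whole gene cannot show an altered exon, so the genotype is given as labelled throughout. Cell type marker levels also differed between the groups compared. The 10 myeloid markers, all detected in every group, summed to 8567 to 8968 CPM in WT GM-CSF, 6675 to 6873 CPM in WT IL-6 and 6337 to 6553 CPM in labelled Cysltr1-/- GM-CSF libraries, and to 5224 to 5349 CPM in labelled Cysltr1-/- IL-6 libraries. With EMT6 medium they summed to 7265 to 7611 CPM in WT and 4362 to 4938 CPM in labelled Cysltr1-/- libraries. Single myeloid markers did not move alike. Lyz2, with the largest difference, averaged 4223 CPM in WT GM-CSF and 2417 CPM in WT IL-6 libraries. Csf1r (781 and 921 CPM), Ptprc (593 and 679 CPM) and Cd68 (428 and 541 CPM) were higher with IL-6, and the other myeloid markers lower. Cd68 averaged 1184 CPM in WT EMT6 libraries. Ly6g, a neutrophil surface protein, averaged 196 CPM in WT GM-CSF, 85.8 CPM in WT IL-6, 62.3 CPM in labelled Cysltr1-/- GM-CSF and 21.4 CPM in labelled Cysltr1-/- IL-6 libraries, and 110 and 103 CPM with EMT6 medium. The 11 lymphoid markers summed to 214 to 257 CPM in WT and 150 to 162 CPM in labelled Cysltr1-/- libraries without EMT6 medium. With it they summed to 877 to 932 CPM and 579 to 640 CPM. The B-lineage markers, such as Ighm (544 and 351 CPM), were lower in labelled Cysltr1-/- than in WT EMT6 libraries. Cd3e (9.90 CPM in WT and 20.8 CPM in labelled Cysltr1-/- EMT6 libraries) and Cd3g were higher. No background from reads outside genes was subtracted from marker levels, and its part in such low values was not tested. Most of the summed level of the 8 epithelial markers was Cdh1, E-cadherin. It averaged 699 CPM in WT GM-CSF, 927 CPM in WT IL-6, and 989 and 994 CPM in labelled Cysltr1-/- GM-CSF and IL-6 libraries. With EMT6 medium it averaged 33.5 CPM in WT and 54.6 CPM in labelled Cysltr1-/- libraries. As for many cytosolic synthetases, WT GM-CSF was the lowest of the 4 groups without EMT6 medium, and the EMT6 groups were lower still. Unlike most of them, Cdh1 did not fall with IL-6 in labelled Cysltr1-/- libraries. It also averaged higher in labelled Cysltr1-/- than in WT EMT6 libraries. The other 7 epithelial markers averaged at most 15.1 CPM in any group, and Krt5 was at 0 in 3 groups. The 8 stromal and endothelial markers summed to 166 to 174 CPM in WT GM-CSF and 321 to 323 CPM in WT IL-6 libraries. In labelled Cysltr1-/- libraries they summed to 201 to 203 CPM with GM-CSF and 355 to 365 CPM with IL-6. With EMT6 medium the sums were 175 to 186 CPM in WT and 213 to 253 CPM in labelled Cysltr1-/- libraries. The part of cell composition in the results was not tested.

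Cytosolic synthetase mRNAs were more abundant than mitochondrial ones in every group. Per kilobase of exon, with CPM scaled by the TMM method, the median cytosolic gene stood at 23.5 CPM and the median mitochondrial gene at 3.83 CPM in WT GM-CSF cultures, a ratio of 6.13. The ratio of these medians was 8.71 in WT IL-6 cultures and 5.64 in WT EMT6 cultures. In the labelled Cysltr1-/- cultures it was 8.52 with GM-CSF, 8.77 with IL-6 and 5.2 with EMT6 medium. No background was subtracted here, and the EMT6 ratios are the most exposed to it. The background expected from reads outside genes had a median of 15.2% of a mitochondrial gene's count in WT EMT6 libraries. In labelled Cysltr1-/- EMT6 libraries it was 30.7%. For a cytosolic gene the medians were 2.69% and 5.85%. In WT GM-CSF cultures the cytosolic genes ran from 10.1 CPM per kilobase for Eprs, the joint glutamate and proline enzyme, to 69.8 for Sars, the serine enzyme. The length used is the union of all annotated exons, 18102 bases for Eprs and 5142 for Sars, and the order depends on it. Without division by length Eprs averaged 182 CPM there, above the cytosolic median of 97.9 CPM. The mitochondrial order rests on such lengths too. The mitochondrial genes ran from 1.13 for Mars2, the methionine enzyme, to 10.5 for Lars2, the leucine enzyme.

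**Figure D1:**
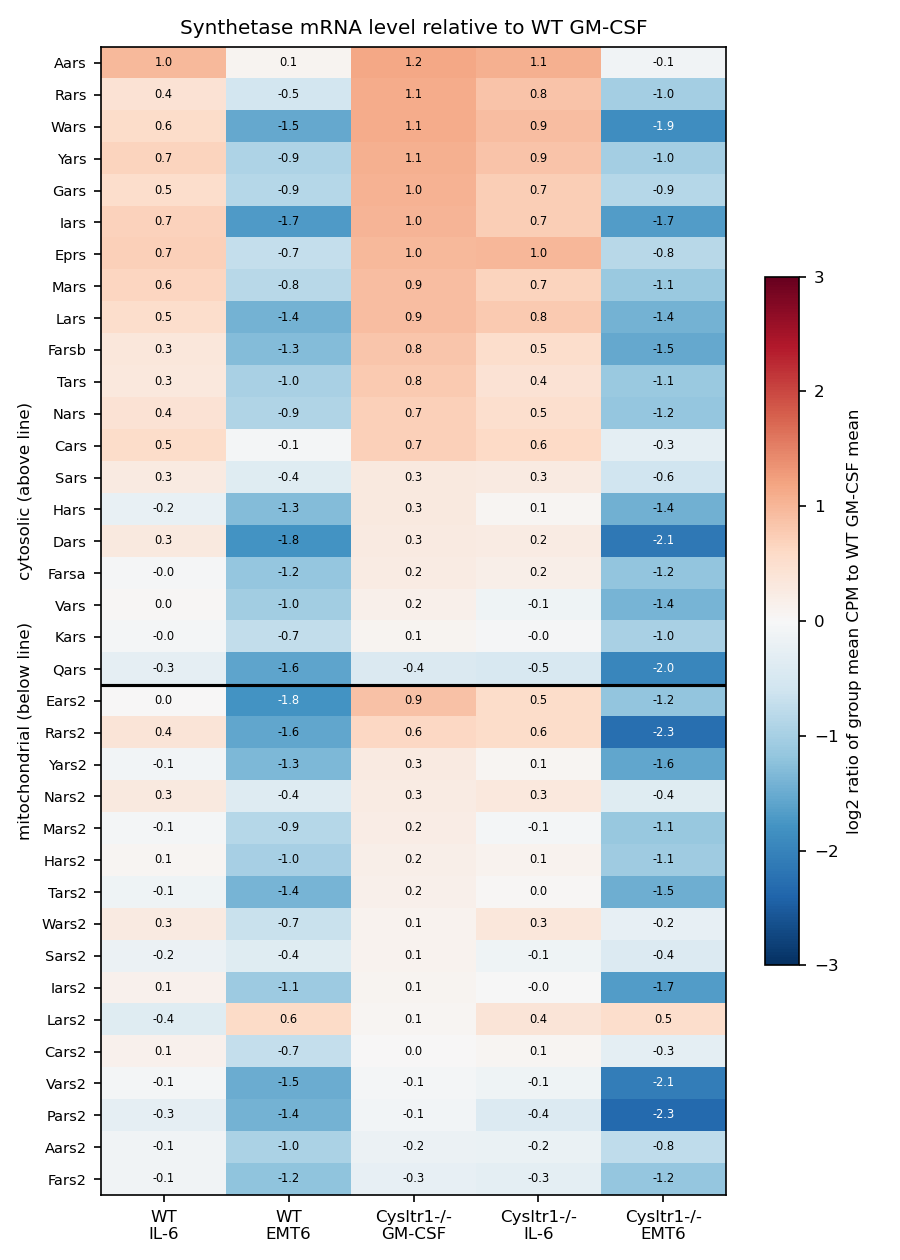
Level of the synthetase mRNAs in 5 groups relative to the WT GM-CSF group, as the log2 ratio of group mean TMM-scaled CPM (n = 3 libraries per group; red is higher, blue lower). The 20 cytosolic genes stand above the line and the mitochondrial genes, of which 1 is not shown, below it, each ordered by the labelled Cysltr1-/- GM-CSF column; most cytosolic rows are red in the WT IL-6 and both labelled Cysltr1-/- columns without EMT6 medium, from Aars at the top to Qars, which is blue.

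Under GM-CSF alone, most cytosolic synthetase mRNAs were higher in labelled Cysltr1-/- cultures than in WT. By edgeR's quasi-likelihood test with Benjamini-Hochberg adjustment over 28334 genes (a call is an adjusted p under 0.05), 18 of the 20 were higher and 1, Qars, was lower, with a median log2 fold change of 0.81. Of all tested genes 10.1% were higher and 17.2% lower, with a median of 0.04, and of the 11176 genes at 5 CPM or more 17.7% were higher and 38.3% lower. Of the mitochondrial genes 5 of 17 were higher and 2 lower, with a median of 0.11. With library sizes alone as the scaling, this mitochondrial split became 8 higher and 0 lower.

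Aars, the alanine enzyme, stood at 149, 156 and 142 CPM in the 3 WT GM-CSF libraries and at 335, 330.0 and 334 CPM in the labelled Cysltr1-/- ones. The 2 sets were far apart and did not overlap, a log2 fold change of 1.16 ± 0.05 (standard error; edgeR adjusted p = 1.02e-22), or 2.24-fold. Rars, the arginine enzyme, was at 93.9, 94.2 and 102 CPM in WT and 203, 211 and 217 CPM in labelled Cysltr1-/- libraries, a change of 1.12 ± 0.05 (edgeR adjusted p = 6.15e-23). Every labelled Cysltr1-/- library lay above every WT library for both genes. Separate groups were a condition for naming a gene among the largest changes of a comparison, interactions apart. The separation of such genes, here and below, was thus fixed by that choice and adds no support. The share of all tested genes with separate groups is not given. Wars, the tryptophan enzyme, stood at 71.8, 79.1 and 66.3 CPM in WT and at 155, 158 and 157 CPM in labelled Cysltr1-/- libraries, a change of 1.12 ± 0.06 (edgeR adjusted p = 7.39e-21). Qars, the glutamine enzyme, went the other way: 219, 229 and 213 CPM in WT against 162, 165 and 161 CPM, a change of -0.44 ± 0.05 (edgeR adjusted p = 5.98e-10). Its groups did not overlap either. Kars, the lysine enzyme, was the only cytosolic member not called (0.07 ± 0.05, edgeR adjusted p = 0.322), with WT libraries at 129 to 132 CPM and labelled Cysltr1-/- libraries at 135 to 139 CPM. The call of Vars, the valine enzyme, was lost without labelled Cysltr1-/- GM-CSF replicate 2 (0.16 with all libraries, 0.14 and edgeR adjusted p = 0.0654 without it).

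Among the mitochondrial enzymes, Ears2, which charges glutamate, was at 9.09, 8.13 and 9.43 CPM in WT and 15.6, 16.7 and 16.7 CPM in labelled Cysltr1-/- GM-CSF libraries, a change of 0.86 ± 0.09 (edgeR adjusted p = 2.38e-10). Rars2, the arginine enzyme, stood at 19.0, 20.9 and 19.3 CPM in WT and at 27.1, 32.2 and 31.8 CPM in labelled Cysltr1-/- libraries, a change of 0.63 ± 0.08 (edgeR adjusted p = 4.44e-09). Neither gene's groups overlapped. Fars2, the phenylalanine enzyme, fell by 0.26 ± 0.06 on the log2 scale (edgeR adjusted p = 0.00158), from 28.0, 29.6 and 29.7 CPM to 23.8, 24.2 and 25.2 CPM. Its groups did not overlap. The calls of Mars2, Nars2 and Yars2, at 0.22 to 0.27, were each lost without at least 1 library, among them labelled Cysltr1-/- GM-CSF replicate 1 for all 3 (edgeR adjusted p = 0.151, 0.0567 and 0.0621 in that order).

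**Figure D2:**
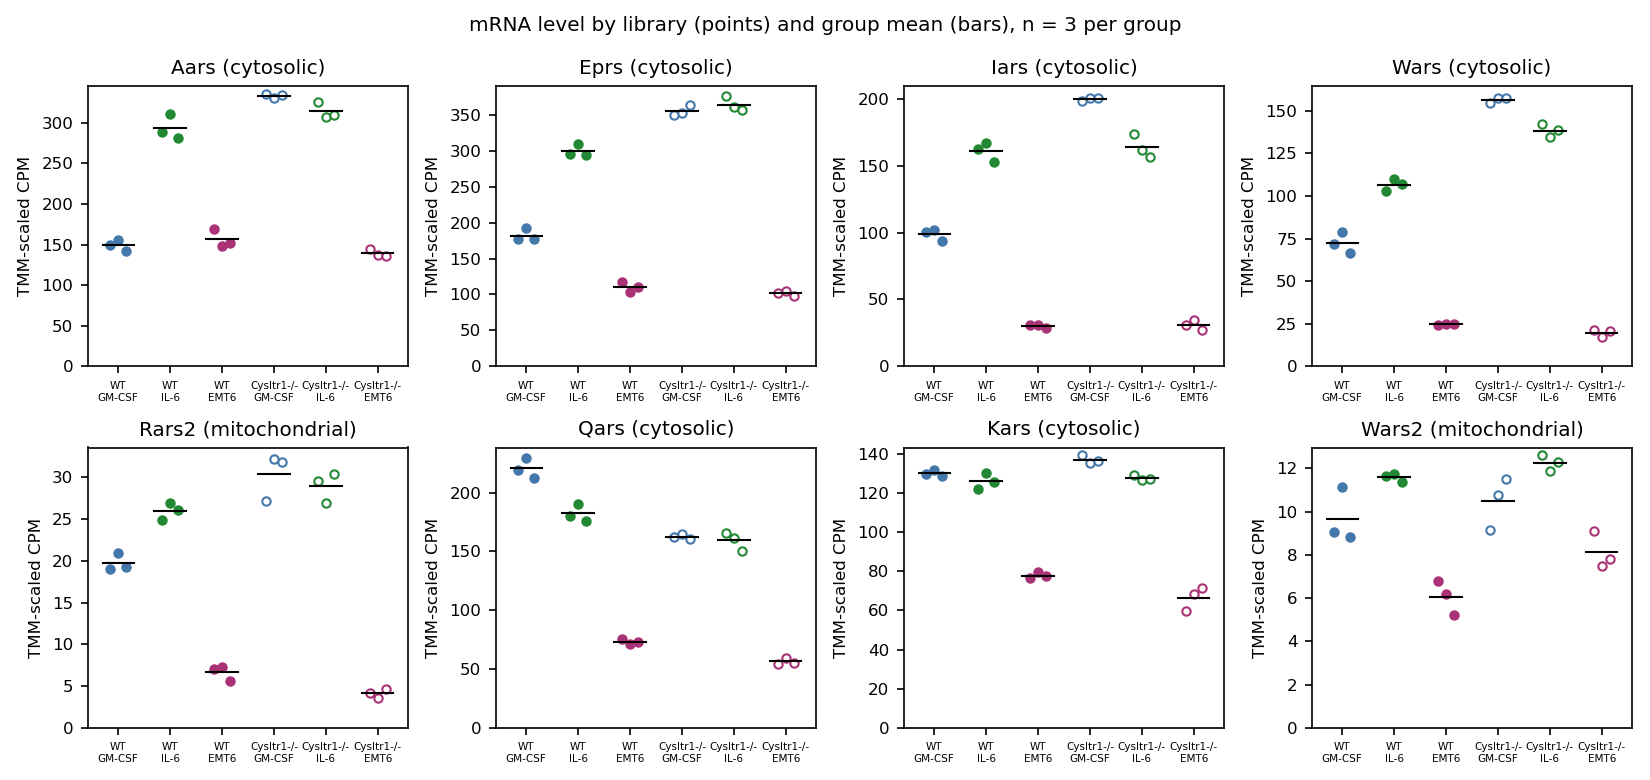
TMM-scaled CPM of 8 synthetase mRNAs in each of the 18 libraries (points) with the group mean (bars, n = 3); filled points are WT and open points labelled Cysltr1-/- libraries, and each vertical axis starts at 0. Aars is near 149 CPM in WT GM-CSF libraries and at 281 CPM or more in WT IL-6 and in both labelled Cysltr1-/- groups without EMT6 medium, whereas Qars is highest in WT GM-CSF libraries and Kars differs little among the 4 groups without EMT6 medium.

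IL-6 added to GM-CSF raised most cytosolic synthetase mRNAs in WT cultures. Of the 20 genes 15 rose and 2 fell, with a median log2 fold change of 0.43, while 10.4% of all tested genes rose and 11.3% fell (median -0.03) and of those at 5 CPM or more 23.3% rose and 24.0% fell. The mitochondrial set held 3 genes that rose and 0 that fell, with a median of -0.06. This comparison and the genotype comparison under GM-CSF alone share the 3 WT GM-CSF libraries, so a low or high value there enters both.

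Aars rose to 289, 311 and 281 CPM in the WT IL-6 libraries, a change of 0.98 ± 0.05 (edgeR adjusted p = 7.56e-20). Eprs stood at 178, 192 and 176 CPM without and at 296, 309 and 294 CPM with IL-6, a rise of 0.72 ± 0.05 (edgeR adjusted p = 3.78e-16). All 3 IL-6 libraries lay above the 3 GM-CSF libraries for each. Iars, the isoleucine enzyme, rose by 0.70 ± 0.06 (edgeR adjusted p = 6.54e-14), from 100.5, 102 and 93.5 CPM to 162, 167 and 153 CPM. Wars rose to 103, 110.2 and 107 CPM (0.57 ± 0.06, edgeR adjusted p = 5.73e-11). Qars fell to 180.4, 190.5 and 176 CPM (-0.27 ± 0.05, edgeR adjusted p = 1.95e-05). Hars, the histidine enzyme, went from 63.3, 60.6 and 70.4 CPM to 53.2, 56.0 and 57.4 CPM (-0.23 ± 0.06, edgeR adjusted p = 0.00349), a call that was lost without WT GM-CSF replicate 3, its highest library (-0.16, edgeR adjusted p = 0.0735). Hars and the mitochondrial Hars2 lie head to head on chromosome 18, at positions 36766528 to 36783205 and 36783008 to 36792562 of GRCm38, and their annotated spans overlap. Reads there cannot be assigned without strand, so both counts are uncertain. Farsa, Kars and Vars were not called in this comparison, with changes from -0.05 to 0.03.

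The mitochondrial genes that rose with IL-6 in WT were Rars2, Nars2 and Wars2. Rars2 went to 24.9, 27.0 and 26.0 CPM (0.40 ± 0.08, edgeR adjusted p = 5.94e-05). Nars2, the asparagine enzyme, went from 11.5, 12.4 and 11.5 CPM to 15.0, 14.7 and 14.0 CPM (0.31 ± 0.08, edgeR adjusted p = 0.00471). Both sets of libraries were separate. Wars2, the tryptophan enzyme of mitochondria, was at 9.04, 11.2 and 8.80 CPM without and 11.7, 11.7 and 11.4 CPM with IL-6 (0.28 ± 0.10, edgeR adjusted p = 0.0421). Leaving out WT GM-CSF replicate 3 gave 0.21 and an adjusted p of 0.242 for Wars2, and leaving out WT GM-CSF replicate 1 or any WT IL-6 library also ended the call.

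In labelled Cysltr1-/- cultures IL-6 lowered rather than raised cytosolic synthetase mRNAs, by small amounts. Of the 20 genes 0 rose and 12 fell, with a median of -0.19, where 5.54% of all tested genes rose and 8.77% fell. Of the genes at 5 CPM or more 11.3% rose and 20.5% fell. Tars, the threonine enzyme, was at 109.6, 112 and 109.8 CPM with GM-CSF and at 86.6, 86.1 and 85.4 CPM with IL-6 (-0.36 ± 0.05, edgeR adjusted p = 1.85e-07). Vars went from 257, 263 and 251 CPM to 216, 199 and 212 CPM (-0.30 ± 0.05, edgeR adjusted p = 6.95e-06). Farsb, the beta subunit of the phenylalanine enzyme, went from 96.7, 97.1 and 98.8 CPM to 82.9, 79.0 and 76.6 CPM (-0.29 ± 0.05, edgeR adjusted p = 1.77e-05). None of these groups overlapped. Aars stood at 326, 307 and 309.6 CPM with IL-6 and was not called (-0.08 ± 0.05, edgeR adjusted p = 0.331), nor was Eprs at 376, 360.2 and 356 CPM (0.04 ± 0.05, edgeR adjusted p = 0.734). Wars (-0.18 ± 0.05, edgeR adjusted p = 0.0187) and Lars, the leucine enzyme (-0.13 ± 0.05, edgeR adjusted p = 0.042), lost their calls without single libraries, among them labelled Cysltr1-/- IL-6 replicate 2 (adjusted p = 0.119 and 0.158).

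Of the mitochondrial genes 2 fell with IL-6 in labelled Cysltr1-/- cultures. Ears2 went to 11.9, 12.8 and 14.2 CPM (-0.33 ± 0.09, edgeR adjusted p = 0.00669), and Mars2 from 15.1, 14.6 and 14.9 CPM to 12.7, 12.2 and 11.9 CPM (-0.28 ± 0.08, edgeR adjusted p = 0.0175). Both calls were lost without 1 library, labelled Cysltr1-/- IL-6 replicate 1 for Ears2 (edgeR adjusted p = 0.0675) and replicate 3 of that group for Mars2 (edgeR adjusted p = 0.091). Wars2 was at 12.6, 11.9 and 12.3 CPM with IL-6 and was not called (0.23 ± 0.10, edgeR adjusted p = 0.125).

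The IL-6 effect differed between the genotypes for 17 of the 20 cytosolic genes and for 1 of the 17 mitochondrial genes. By the interaction term of the same edgeR fit, 16 cytosolic genes had a lower IL-6 effect in labelled Cysltr1-/- cultures and 1, Qars, a higher one, with a median of -0.65, where 4.46% of all tested genes were lower and 2.92% higher and, at 5 CPM or more, 10.9% lower and 6.34% higher. The difference was -1.06 ± 0.07 for Aars (edgeR adjusted p = 5.87e-15), -0.99 ± 0.08 for Iars (edgeR adjusted p = 4.62e-13) and -0.91 ± 0.07 for Mars, the methionine enzyme (edgeR adjusted p = 3.09e-14). Mars stood at 95.6, 97.4 and 90.6 CPM in WT GM-CSF and 147, 151 and 144 CPM in WT IL-6 libraries, but at 181, 181 and 180.0 CPM and then 154, 148 and 149 CPM in the labelled Cysltr1-/- ones. Among the groups without EMT6 medium, its lowest was therefore WT GM-CSF and its highest labelled Cysltr1-/- GM-CSF. For Wars the difference was -0.74 ± 0.08 (edgeR adjusted p = 1.69e-09). The mitochondrial gene was Rars2 (-0.47 ± 0.11, edgeR adjusted p = 0.00226), and Wars2 gave -0.05 ± 0.14 (edgeR adjusted p = 0.922). For Qars the difference of 0.25 ± 0.07 (edgeR adjusted p = 0.0194) was lost without WT IL-6 replicate 1 or 3 or labelled Cysltr1-/- IL-6 replicate 1 or 2 (adjusted p of 0.0568 to 0.0763).

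With IL-6 in both genotypes, the genotype differences were smaller. Of the cytosolic genes 9 were higher and 2 lower in labelled Cysltr1-/- cultures, with a median of 0.10, where 12.1% of all tested genes were higher and 18.4% lower and, at 5 CPM or more, 11.7% higher and 42.3% lower. Scaled by library sizes alone, the split was 17 higher and 0 lower. Rars was at 130.1, 133 and 127 CPM in WT and 177, 168 and 175 CPM in labelled Cysltr1-/- IL-6 libraries (0.42 ± 0.05, edgeR adjusted p = 1.8e-09). Wars differed by 0.38 ± 0.05 (edgeR adjusted p = 3.65e-07), from the values above to 142, 134 and 139 CPM, and Eprs by 0.28 ± 0.05 (edgeR adjusted p = 7.54e-06). These 3 genes had separate groups. Qars was at 166, 162 and 151 CPM in labelled Cysltr1-/- IL-6 libraries (-0.19 ± 0.05, edgeR adjusted p = 0.00198). Vars was lower by a similar amount (-0.16 ± 0.05, edgeR adjusted p = 0.00897), a call lost without replicate 2 of either genotype (adjusted p = 0.0609 without the WT one and 0.104 without the labelled Cysltr1-/- one).

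The mitochondrial split with IL-6 was 2 higher and 2 lower, and 6 higher and 0 lower with library sizes alone. Ears2 was at 9.38, 8.71 and 8.70 CPM in WT and, as given, at 11.9 CPM or more in labelled Cysltr1-/- libraries (0.54 ± 0.09, edgeR adjusted p = 1.29e-05). Fars2 was at 27.4, 28.1 and 26.0 CPM in WT and 22.6, 25.0 and 23.3 CPM in labelled Cysltr1-/- libraries (-0.20 ± 0.06, edgeR adjusted p = 0.0148). Iars2, the isoleucine enzyme, was at 78.4, 83.9 and 80.8 CPM in WT and 76.9, 72.0 and 71.1 CPM in labelled Cysltr1-/- libraries (-0.14 ± 0.05, edgeR adjusted p = 0.0385). The Fars2 call was lost without labelled Cysltr1-/- IL-6 replicate 1 or 3 or WT IL-6 replicate 1 or 2 (adjusted p of 0.0526 to 0.0829). That of Iars2 was lost without replicate 2 or 3 of either group (adjusted p of 0.0798 to 0.171), and its direction turned with library sizes alone (0.0038). Wars2 differed by 0.08 ± 0.10 (edgeR adjusted p = 0.564).

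**Figure D3:**
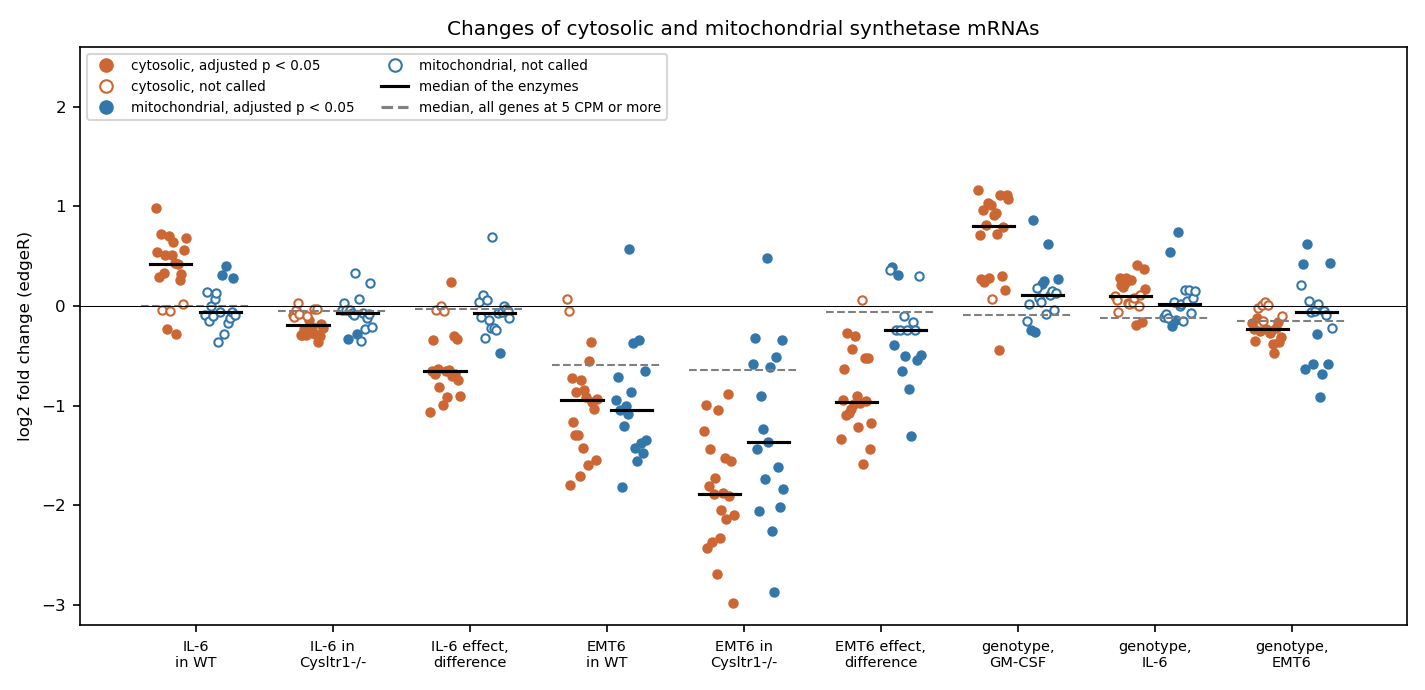
Log2 fold change of each cytosolic (orange) and mitochondrial (blue) synthetase mRNA in the 9 comparisons, with filled points for an adjusted p under 0.05 by edgeR, black bars for the median of each set and dashed lines for the median of all genes at 5 CPM or more. "Difference" columns give the effect in labelled Cysltr1-/- minus that in WT cultures, and genotype columns labelled Cysltr1-/- minus WT; the cytosolic median is 0.43 for IL-6 in WT, -0.19 for IL-6 in labelled Cysltr1-/- and 0.81 for the genotype under GM-CSF, against mitochondrial medians of -0.06, -0.07 and 0.11.

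Promoters were compared because the cytosolic genes moved together between media. The RefSeq table for GRCm38.p6 held windows of 250 bases before to 50 bases after the start for 13 cytosolic and 14 mitochondrial members. The motif searched was TGATGNAA on both strands (TTNCATCA when read on the other strand), the core of the element bound by C/EBP and Atf4 pairs, and no other motif was searched. It occurred in 1304 of 32851 windows (3.97%), in 5 of the 13 cytosolic windows and in 0 of the 14 mitochondrial ones. The 5 are shown with the match in capitals, 5′ to 3′ on the gene's strand, and Qars, the member that moved opposite to most, is shown as a window without one. The stretches end 30 bases into the transcript and are, in order, Aars at chr8:111033722-111033871 (plus strand), Gars at chr6:55037941-55038030 (plus), Iars at chr13:49682070-49682159 (plus), Tars at chr15:11399629-11399718 (minus), Yars at chr4:129189843-129189932 (plus) and Qars at chr9:108507945-108508034 (plus).
Aars: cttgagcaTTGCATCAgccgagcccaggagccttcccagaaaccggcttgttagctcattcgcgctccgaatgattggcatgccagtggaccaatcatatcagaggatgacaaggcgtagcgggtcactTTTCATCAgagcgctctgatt
Gars: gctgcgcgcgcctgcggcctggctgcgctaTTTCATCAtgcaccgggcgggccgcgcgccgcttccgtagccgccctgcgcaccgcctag
Iars: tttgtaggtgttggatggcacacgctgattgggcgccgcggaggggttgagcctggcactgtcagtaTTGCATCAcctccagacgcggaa
Tars: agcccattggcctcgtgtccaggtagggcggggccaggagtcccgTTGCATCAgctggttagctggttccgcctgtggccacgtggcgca
Yars: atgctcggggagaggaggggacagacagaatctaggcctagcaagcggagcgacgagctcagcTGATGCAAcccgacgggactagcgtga
Qars: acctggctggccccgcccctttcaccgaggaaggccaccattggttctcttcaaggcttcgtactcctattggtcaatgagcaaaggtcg

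Only the windows around the start site were searched, so every match had to lie near it. The first base of the matches was at -112 and +10 in Aars, -30 in Gars, +8 in Iars, -15 in Tars and +4 in Yars, relative to the start. All 5 of these genes rose with IL-6 in WT, as did 5 of the 8 cytosolic genes whose window held no match. Gars, which serves cytosol and mitochondria, rose by 0.52 ± 0.05 (edgeR adjusted p = 9.66e-13), from 167, 173 and 172 CPM to 243, 247 and 242 CPM, and Yars, the tyrosine enzyme, by 0.68 ± 0.05 (edgeR adjusted p = 3.11e-15). A match is a string of letters and no measure of binding.

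Genes of the Atf4 pathway, targets as well as regulators, were read for the same comparisons. The part of Atf4 in the synthetase changes was not tested. Of 20 regulators and targets of Atf4, 19 rose and 1 fell with IL-6 in WT. Of all tested genes 10.4% rose and 11.3% fell there. With IL-6 in labelled Cysltr1-/- cultures 7 of the 20 rose and 8 fell, against 5.54% and 8.77% of all tested genes. Under GM-CSF 19 were higher and 1 lower in labelled Cysltr1-/- than in WT cultures, against 10.1% and 17.2%. At 5 CPM or more the shares in the same order were 23.3% and 24.0%, 11.3% and 20.5%, and 17.7% and 38.3%. The interaction with IL-6 was lower for 18 of the 20, with a median of -0.83. It was lower for 4.46% of all tested genes and for 10.9% of those at 5 CPM or more. Trib3, a pseudokinase induced by Atf4, was at 32.5, 35.3 and 33.9 CPM in WT GM-CSF, 205, 221 and 211 CPM in WT IL-6, 247 to 253 CPM in labelled Cysltr1-/- GM-CSF and 289, 291 and 288 CPM in labelled Cysltr1-/- IL-6 libraries. The WT GM-CSF group thus stood far below the other 3. Its IL-6 effect was 2.65 ± 0.06 in WT (edgeR adjusted p = 6.13e-34) and 0.21 ± 0.05 in labelled Cysltr1-/- cultures (edgeR adjusted p = 0.00161). Atf5, a related transcription factor, rose by 1.42 ± 0.05 with IL-6 in WT (edgeR adjusted p = 8.77e-26), and the IL-6 effect on Asns, asparagine synthetase, differed between genotypes by -1.47 ± 0.08 (edgeR adjusted p = 1.14e-18). Another list held 7 genes, for the kinases and phosphatase subunits of the integrated stress response and for eIF2alpha, on which they act. Of these 2 rose and 0 fell with IL-6 in WT, where 23.3% of genes at 5 CPM or more rose. The 2 were Ppp1r15a and Ppp1r15b, both regulatory subunits of the phosphatase that acts on eIF2alpha. They rose by 0.48 ± 0.06 (edgeR adjusted p = 2.29e-09) and by 0.33 ± 0.05 (edgeR adjusted p = 1.74e-06).

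Members inside and outside the multi-synthetase complex moved in the same comparisons. With IL-6 in WT 6 of the 8 complex enzymes rose and 1 fell (median 0.47). Of the other 12 cytosolic genes 9 rose and 1 fell (median 0.38). Of all tested genes 10.4% rose and 11.3% fell, and of those at 5 CPM or more 23.3% rose and 24.0% fell. By catalytic class, 7 of 9 class I genes rose and 1 fell (median 0.54), and 7 of 10 class II genes rose and 1 fell (median 0.31). Eprs has a domain of each class and was left out of that count. Of the 3 scaffold genes 1 was called: Eef1e1 rose by 0.19 ± 0.07 (edgeR adjusted p = 0.039), Aimp2 gave 0.22 ± 0.09 (edgeR adjusted p = 0.0875) and Aimp1 -0.05 ± 0.05 (edgeR adjusted p = 0.628). Of 10 other genes of tRNA charging 2 rose and 0 fell, a share of rises near that of genes at 5 CPM or more. Xpot, the exportin that carries tRNA out of the nucleus, rose by 0.88 ± 0.05 (edgeR adjusted p = 8.81e-18), from 72.5, 76.2 and 73.7 CPM to 137, 139 and 134 CPM, and its IL-6 effect differed between genotypes by -1.06 ± 0.07 (edgeR adjusted p = 1.13e-14). Prorsd1, an editing domain protein, rose by 0.19 ± 0.07 (edgeR adjusted p = 0.0368).

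The cytosolic phenylalanine enzyme is built of 2 kinds of subunit, and their mRNA ratio was followed by library. The ratio of Farsb to Farsa counts was 0.728 ± 0.020 (SD, n = 3) in WT GM-CSF, 0.945 ± 0.015 in WT IL-6, 1.08 ± 0.0056 in labelled Cysltr1-/- GM-CSF and 0.931 ± 0.052 in labelled Cysltr1-/- IL-6 cultures. With EMT6 medium it was 0.667 ± 0.082 in WT and 0.569 ± 0.028 in labelled Cysltr1-/- cultures. Farsb rose by 0.34 ± 0.05 with IL-6 in WT (edgeR adjusted p = 1.76e-06), while Farsa, the alpha subunit, gave -0.04 ± 0.05 (edgeR adjusted p = 0.706). The largest difference on the log2 scale was -0.93, with EMT6 medium in labelled Cysltr1-/- cultures. The ratio's libraries did not overlap there, with IL-6 in either genotype or between the genotypes under GM-CSF, each with an exact two-sided permutation p of 0.1, the smallest that 3 against 3 can give. The p was 0.3 with EMT6 medium in WT, 0.8 between genotypes with IL-6 and 0.2 between genotypes with EMT6 medium.

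EMT6 medium lowered nearly all synthetase mRNAs of both compartments. In WT 0 of the 20 cytosolic genes rose and 18 fell, with a median of -0.95, and of the 17 mitochondrial genes 1 rose and 16 fell, with a median of -1.04. Of all tested genes 46.8% rose and 34.5% fell, but of those at 5 CPM or more 16.1% rose and 73.4% fell, with a median of -0.59, so falls were common at these levels. In labelled Cysltr1-/- cultures 0 cytosolic genes rose and 20 fell (median -1.88), and 1 mitochondrial gene rose and 16 fell (median -1.36), where 54.3% of all tested genes rose and 32.9% fell and, at 5 CPM or more, 18.9% rose and 70.7% fell (median -0.65). Library sizes alone shifted the median of all genes by 0.49 in WT and 0.62 in labelled Cysltr1-/- cultures, and the counts became 3 risen and 16 fallen cytosolic genes in WT and 3 risen and 11 fallen mitochondrial genes in labelled Cysltr1-/-. The direction of Sars, Nars2 and Sars2 turned in WT and that of Aars2, Cars2, Nars2, Sars2 and Wars2 in labelled Cysltr1-/- cultures. DESeq2 size factors shifted the median the other way, by -0.14 and -0.27.

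The EMT6 libraries also held more reads outside genes. From the density of such reads, the median expected background was 2.69% of a cytosolic gene's count in WT and 5.85% in labelled Cysltr1-/- EMT6 libraries, but 15.2% and 30.7% of a mitochondrial gene's. It reached 113% for Pars2, 104% for Mars2 and 77.2% for Vars2 in labelled Cysltr1-/- EMT6 libraries, so the counts of Pars2 and Mars2 there were not above the expected background. After subtraction of this background 15 mitochondrial genes in WT and 16 in labelled Cysltr1-/- cultures fell.

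Dars, the aspartate enzyme, went from 116, 108 and 114 CPM to 32.8, 30.1 and 34.6 CPM with EMT6 medium in WT, a change of -1.79 ± 0.06 (edgeR adjusted p = 7.09e-29), or 3.47-fold lower. Iars went to 31.3, 31.2 and 28.3 CPM (-1.70 ± 0.06, edgeR adjusted p = 1.3e-26) and Qars to 75.7, 71.1 and 72.7 CPM (-1.59 ± 0.05, edgeR adjusted p = 7.44e-29). All EMT6 libraries lay below the GM-CSF ones for these 3 genes. Aars, at 169, 148 and 152 CPM, and Cars, the cysteine enzyme, at 75.8, 71.8 and 73.4 CPM, were the cytosolic genes not called, with changes of 0.07 ± 0.05 (edgeR adjusted p = 0.185) and -0.05 ± 0.05 (edgeR adjusted p = 0.325). After background subtraction all 20 cytosolic genes were called in this comparison, counting calls in either direction, Aars and Cars among them. The median of all tested genes also moved with the subtraction, from 0.49 to 0.07. Wars fell by 1.54 ± 0.07 (edgeR adjusted p = 1.1e-24), to 24.4, 24.8 and 25.1 CPM. Among mitochondrial genes Ears2 fell by 1.82 ± 0.13 (edgeR adjusted p = 1.66e-16), to 2.55, 2.75 and 2.33 CPM, of which 59.6% was expected background. Rars2 fell by 1.56 ± 0.10 (edgeR adjusted p = 1.02e-18), to 7.08, 7.27 and 5.68 CPM, and Wars2 by 0.65 ± 0.12 (edgeR adjusted p = 3.41e-06), to 6.80, 6.17 and 5.2 CPM.

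In labelled Cysltr1-/- cultures most cytosolic falls began from higher GM-CSF levels. Wars went to 21.5, 17.1 and 20.8 CPM, a change of -2.97 ± 0.07 (edgeR adjusted p = 6.7e-35), or 7.86-fold lower. Iars went to 31.1, 34.9 and 27.3 CPM (-2.69 ± 0.06, edgeR adjusted p = 6.04e-34) and Dars from 134, 135 and 142 CPM to 25.7, 27.2 and 23.7 CPM (-2.42 ± 0.06, edgeR adjusted p = 5.57e-33). No EMT6 library overlapped a GM-CSF library for these genes. Rars2 fell by 2.87 ± 0.11 (edgeR adjusted p = 5.14e-27), to 4.23, 3.59 and 4.6 CPM. Pars2, the proline enzyme, went from 8.29, 6.42 and 5.82 CPM to 1.37, 1.5 and 1.46 CPM (-2.26 ± 0.18, edgeR adjusted p = 5.26e-15), the level of its expected background. Wars2 was at 9.11, 7.48 and 7.81 CPM (-0.34 ± 0.11, edgeR adjusted p = 0.005), with a change of 0.27 under library sizes alone. Without labelled Cysltr1-/- EMT6 replicate 1 the change of Wars2 was -0.66, and without labelled Cysltr1-/- GM-CSF replicate 1 the change was -0.67.

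The EMT6 effect was lower in labelled Cysltr1-/- than in WT cultures for 19 of the 20 cytosolic genes, with 0 higher and a median difference of -0.96. By the same interaction test 13.2% of all tested genes were higher and 12.3% lower, and of those at 5 CPM or more 20.8% were higher and 29.3% lower. The difference was -1.59 ± 0.07 for Rars (edgeR adjusted p = 2.41e-21), which went from 93.9, 94.2 and 102 CPM to 67.6, 67.0 and 63.8 CPM in WT and from 203, 211 and 217 CPM to 46.9, 49.8 and 46.9 CPM in labelled Cysltr1-/- cultures. It was -1.43 ± 0.10 for Wars (edgeR adjusted p = 3.63e-16) and -1.33 ± 0.07 for Aars (edgeR adjusted p = 1.04e-18), which stood at 145, 138 and 136 CPM in labelled Cysltr1-/- EMT6 libraries. Qars was the cytosolic gene without a call (0.06 ± 0.07, edgeR adjusted p = 0.599). Of the mitochondrial genes 2 were higher and 7 lower, with a median of -0.24, and 0 were higher and 9 lower after background subtraction. With library sizes alone the mitochondrial split was 4 higher and 5 lower. Rars2 (-1.31 ± 0.15, edgeR adjusted p = 4.86e-09) and Pars2 (-0.83 ± 0.25, edgeR adjusted p = 0.0109) were lower. Cars2, the cysteine enzyme (0.39 ± 0.12, edgeR adjusted p = 0.0104), and Fars2 (0.31 ± 0.11, edgeR adjusted p = 0.0263) were higher. Leaving out WT EMT6 replicate 1 gave adjusted p-values of 0.152 for Cars2 and 0.339 for Fars2, and several other single libraries also ended these calls. Wars2 was not called (0.31 ± 0.16, edgeR adjusted p = 0.176).

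With EMT6 medium in both genotypes, 0 cytosolic genes were higher and 14 lower in labelled Cysltr1-/- cultures, with a median of -0.23. Of all tested genes 32.3% were higher and 19.8% lower, and of those at 5 CPM or more 15.0% were higher and 46.3% lower. With library sizes alone, which moved the median of all genes by 0.24, 6 were higher and 3 lower, and the direction of Aars, Cars, Eprs, Kars, Sars and Tars turned. Rars was lower by 0.47 ± 0.06 (edgeR adjusted p = 3.79e-09) and Qars, at 54.3, 59.6 and 55.5 CPM, by 0.38 ± 0.06 (edgeR adjusted p = 5.15e-07), both with separate groups. Vars was at 111, 115 and 111 CPM in WT and 92.6, 84.2 and 84.8 CPM in labelled Cysltr1-/- libraries (-0.36 ± 0.05, edgeR adjusted p = 3.7e-07). Wars differed by -0.31 ± 0.08 (edgeR adjusted p = 0.00083), or by -0.49 without labelled Cysltr1-/- EMT6 replicate 1. Small changes also grew without other libraries: leaving out labelled Cysltr1-/- EMT6 replicate 1, 2 or 3 in turn gave -0.23, -0.25 and -0.20 for Eprs (-0.12 with all libraries) and -0.30, -0.24 and -0.24 for Tars (-0.15). Aars (-0.17) gave -0.30 and -0.27 without replicate 1 or 2, Cars (-0.23) -0.38 and Sars (-0.22) -0.34 without replicate 1, and Kars (-0.23) -0.36, -0.38 and -0.35 without replicate 2, replicate 3 or WT EMT6 replicate 1. The median of all tested genes moved too, from 0.27 to between 0.15 and 0.16 without any 1 labelled Cysltr1-/- EMT6 library or WT EMT6 replicate 1. Without WT EMT6 replicate 3 the call of Eprs was lost (edgeR adjusted p = 0.0582), as was that of Mars2 (edgeR adjusted p = 0.191).

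Of the mitochondrial genes 3 were higher and 6 lower in labelled Cysltr1-/- EMT6 cultures, or 6 higher and 5 lower with library sizes alone. Pars2 went from 3.12, 2.99 and 2.02 CPM in WT to the values above (-0.91 ± 0.22, edgeR adjusted p = 0.000614), and Rars2 differed by -0.68 ± 0.14 (edgeR adjusted p = 6.24e-05). Ears2 was at 4.33, 4.19 and 3.14 CPM in labelled Cysltr1-/- EMT6 libraries (0.62 ± 0.16, edgeR adjusted p = 0.00139). Its WT libraries were all lower, but 71.5% of its labelled Cysltr1-/- count was expected background. After subtraction it gave 0.32 and an adjusted p of 0.41, and without labelled Cysltr1-/- EMT6 replicate 1 it gave 0.42 and 0.066. Wars2 was higher by 0.43 ± 0.12 (edgeR adjusted p = 0.00383), and by 0.23 without that same library (adjusted p = 0.193), 0.32 without WT EMT6 replicate 3 (adjusted p = 0.0503) or 0.33 after subtraction (adjusted p = 0.097).

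Lars2 behaved unlike the other mitochondrial genes. It was the only one above 100 CPM, and its libraries spread widely within groups: 91.6, 119.8 and 137 CPM in WT GM-CSF, 70.9, 115 and 86.4 CPM in WT IL-6, and 112, 219 and 193 CPM in WT EMT6 libraries. In labelled Cysltr1-/- libraries it was at 90.7, 130.5 and 141 CPM with GM-CSF, 92.3, 105 and 256 CPM with IL-6 and 142, 199 and 163 CPM with EMT6 medium. Its coefficient of variation within groups had a median of 23.3% and reached 60.2%, against medians of 1.67% to 11.1% for the other 36 genes. Lars2 was the mitochondrial gene called higher with EMT6 medium, by 0.58 ± 0.21 in WT (edgeR adjusted p = 0.0116) and 0.48 ± 0.21 in labelled Cysltr1-/- cultures (edgeR adjusted p = 0.0324). The WT groups overlapped. Without WT EMT6 replicate 2 the WT value was 0.37 (adjusted p = 0.112), and without labelled Cysltr1-/- GM-CSF replicate 1 the other was 0.08 (adjusted p = 0.744). The WT call was also lost without WT EMT6 replicate 3 or WT GM-CSF replicate 1 or 2, and the other without any 1 of its 6 libraries. Its genotype difference with IL-6 (0.74 ± 0.21, edgeR adjusted p = 0.00541) was 0.13 without labelled Cysltr1-/- IL-6 replicate 3, the library at 256 CPM (adjusted p = 0.64), and 0.59 without WT IL-6 replicate 1 (adjusted p = 0.0545).

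Set side by side for the 14 amino acids with a gene of each kind, the cytosolic change exceeded the mitochondrial one in 14 of 14 pairs for the genotype under GM-CSF (median difference 0.66) and in 13 of 14 for IL-6 in WT (0.44). It did so in 2 of 14 pairs for IL-6 in labelled Cysltr1-/- cultures (-0.18), 7 of 14 for EMT6 medium in WT (0.00) and 2 of 14 for EMT6 medium in labelled Cysltr1-/- cultures (-0.68). The widest gap under GM-CSF was that of Aars over Aars2, at 1.32. For tryptophan, the ratio of Wars to Wars2 counts was 7.52 ± 0.43 (SD, n = 3) in WT GM-CSF, 9.22 ± 0.33 in WT IL-6 and 4.15 ± 0.64 in WT EMT6 cultures, and 15.1 ± 1.7, 11.3 ± 0.025 and 2.43 ± 0.20 in the labelled Cysltr1-/- cultures with the same media. These sets of 3 did not overlap between genotypes in any medium, with an exact two-sided permutation p of 0.1 for each, the smallest possible. No background was subtracted for the pairs or this ratio. With EMT6 medium the expected background was 29.2% of Wars2 counts in WT and 38.9% in labelled Cysltr1-/- libraries. For Wars it was 4.09% and 9.31%. The part of background in the pair differences and in this ratio was not tested.

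Summed over genes, cytosolic synthetase mRNA averaged 2701 CPM in WT GM-CSF, 3517 CPM in WT IL-6 and 1522 CPM in WT EMT6 cultures, and 4223, 3784 and 1318 CPM in the labelled Cysltr1-/- cultures. The mitochondrial sum without Lars2 averaged 345, 352 and 164 CPM in WT and 373, 350.1 and 147 CPM in labelled Cysltr1-/- cultures with the same media. The mitochondrial sum therefore varied little among the 4 groups without EMT6 medium. The ratio of the sums was 7.84 ± 0.16 (SD, n = 3) in WT GM-CSF and 10.0 ± 0.15 in WT IL-6 cultures, and 11.3 ± 0.027 with GM-CSF and 10.8 ± 0.19 with IL-6 in labelled Cysltr1-/- cultures. With EMT6 medium it was 9.28 ± 0.069 in WT and 8.95 ± 0.11 in labelled Cysltr1-/- cultures, and 10.8 and 12.6 after background subtraction. The order of the EMT6 groups thus turned with the subtraction.

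**Figure D4:**
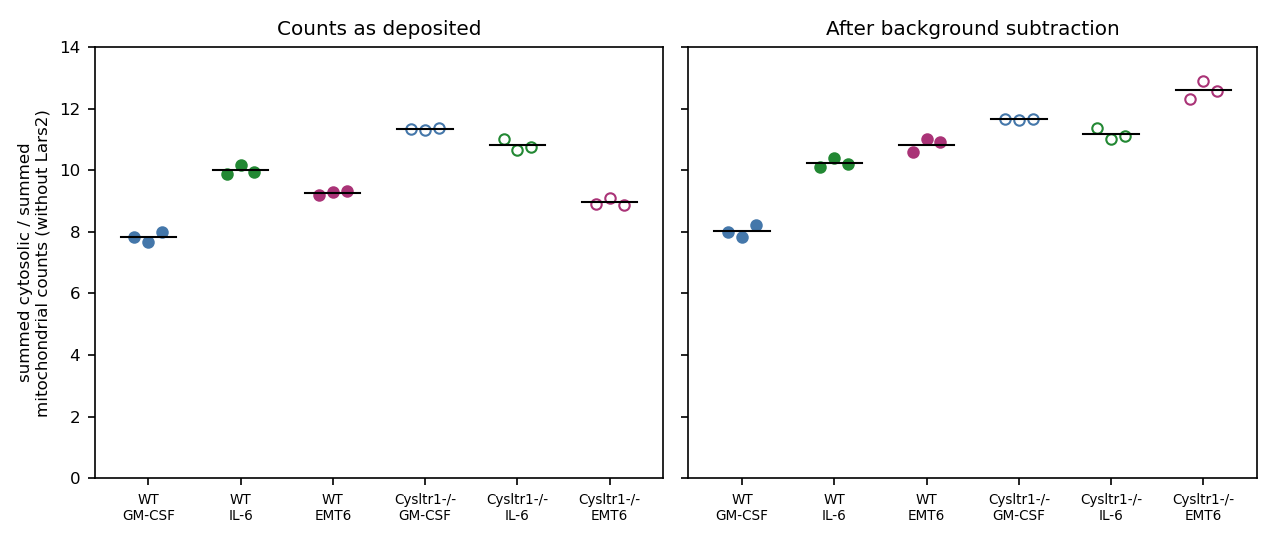
Ratio of summed cytosolic to summed mitochondrial synthetase counts (without Lars2) in each of the 18 libraries, as points with the group mean as a bar (n = 3; filled WT, open labelled Cysltr1-/-), from the counts as deposited and after subtracting the background expected from reads outside genes. The WT GM-CSF libraries are lowest in both panels, with a mean of 7.84 and 8.02, while the labelled Cysltr1-/- EMT6 mean moves from 8.95 to 12.6.

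Over the 6 group means, the members whose log2 level followed Aars most closely were Cars (Pearson r = 0.985), Eprs (0.939) and Yars (0.921), while Qars had r = 0.554 and Lars2 r = -0.481. These correlations describe 6 points that share the same libraries. All 37 genes were called in at least 2 of the 9 comparisons, as were 88.5% of all tested genes and 97.7% of those at 5 CPM or more. Farsb, Rars and Wars were called in all 9, as were 0.596% and 1.49% of these genes, and Kars, called in 4, was the cytosolic gene called least often.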

How the data were processed

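The authors deposited raw counts per gene, 1 file per library, and the submitters' processing notes name mm10, the aligner HISAT2 (version 2.1.0), the counter HTSeq (version 0.13.5) and DESeq2 (version 1.34.0). The annotation, strand setting and filters are not given in the sources used here. Per the labels' protocols, poly(A) libraries were made with a kit not stated to be directional, so reads of overlapping genes are uncertain. The files' 26248 numbered entries, 97 spike-in entries (0 counts) and 5 summary lines were left out, and a deposited normalized table was not used.

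Counts of all 18 libraries entered 1 edgeR 4.0.16 quasi-likelihood fit (R 4.3.3, limma 3.58.1; TMM factors 0.818 to 1.41, filterByExpr, 1 mean per group, common biological coefficient of variation 0.0480), checked on simulated data. Standard errors are the log2 fold change divided by the root of F. Levels are TMM-scaled CPM, divided by union exon length where given per kilobase. Expected background is exon length times the density of reads outside genes. In full detail were named, per comparison, the 3 cytosolic and 2 mitochondrial genes with the largest called change in each direction and separate groups (not asked of interactions), and Wars with Wars2. Members and lists were chosen with earlier results of these data known. Alternatives were DESeq2 1.42.0 and its size factors, library sizes alone, 2 other filters, a replicate block, background subtraction, only the groups compared, and leaving out each library. Sequences are from RefSeq (GRCm38.p6). The values of 1 mitochondrial member are not reported here by name.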

Additional observations from a re-analysis of the deposited data

Results flagged for a closer look

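The results here were picked because a test of the difference between the genotypes passed its threshold. For IL-6, the effect differed for 17 cytosolic genes and 1 mitochondrial gene by the interaction term of the edgeR fit. Among those named, the log2 difference (labelled Cysltr1-/- minus WT) was -1.06 for Aars, -0.99 for Iars, -0.91 for Mars, -0.74 for Wars, -0.47 for Rars2 and 0.25 for Qars. The WT GM-CSF libraries and the labelled Cysltr1-/- GM-CSF libraries both enter each of these values.

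For EMT6 medium the effect differed for 19 cytosolic and 9 mitochondrial genes. The difference was -1.59 for Rars, -1.43 for Wars, -1.33 for Aars, -1.31 for Rars2 and -0.83 for Pars2, and it was 0.39 for Cars2 and 0.31 for Fars2. The expected background share of the counts differed between these groups, with a mitochondrial median of 15.2% in WT and 30.7% in labelled Cysltr1-/- EMT6 libraries, and its part in the mitochondrial values was tested only by subtraction.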

How the results depend on the processing

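These are the counts of called genes that moved by over 1.5 times, first for mitochondrial genes. With IL-6 in WT (3 called), 5 were called without a low-count filter and 5 with only the groups compared, and leaving out single libraries gave 2 to 4. With IL-6 in labelled Cysltr1-/- (2 called), there were 5 with DESeq2 size factors, 4 with the DESeq2 test, 0 after background subtraction (edgeR; 6 at an unadjusted p under 0.05), 7 with only the groups compared, and 1 to 2 when single libraries were left out. For the IL-6 interaction (1 called), there were 2 with DESeq2 size factors, 2 with the DESeq2 test, 3 without a filter, 2 with a filter at a mean of 5 CPM, 2 with the replicate block, 2 with only the groups compared, and 1 to 3 when single libraries were left out. For the genotype, leaving out single libraries gave 4 to 7 under GM-CSF (7 called) and 1 to 3 with IL-6 (4 called). Library sizes alone gave 17 cytosolic genes for the genotype with IL-6 (11 called) and 9 with EMT6 medium (14 called). The cause was not tested. Library sizes alone turned the sign of called values, 3 with EMT6 medium in WT, 5 with it in labelled Cysltr1-/- (Wars2 to 0.27), 6 for the genotype with EMT6 medium, all named in the results, and Iars2 for the genotype with IL-6 (0.0038). Another change of sign was a leave-one-out range of -0.13 to 0.031 for Wars2 (IL-6 interaction), not called with all libraries. Of the other values for named genes, 652 kept their direction and side of the threshold, 58 lost and 2 gained a call.

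Libraries of a number did not pair: correlations of same-numbered libraries ran from -0.33 to 0.30, and no comparison had all 3 above 0.1. With the replicate block, 13 cytosolic genes were called for the genotype with EMT6 medium against 14 without it, and the other cytosolic counts were equal. Depth limits low genes most in EMT6 libraries, the shallowest at 9.58 M counts.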
